A study of Homo sapiens with 14 samples.

Results

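Chromosome 22 carried 348 of the 13808 KMT2D peaks that were called in SCC23 cells under glucose deprivation. SCC23 is an established cell line from a human squamous cell carcinoma of the head and neck (HNSCC). The 14 libraries of the series covered H3 and 5 histone marks in KMT2D-WT and KMT2D-KO cells. KMT2D and input were covered in KMT2D-WT cells only, so the series has no KMT2D library from KMT2D-KO cells. The peak list of 1 of the 14 libraries was analysed. That library was KMT2D ChIP-seq from cells labelled wild type and kept without glucose for 6 h. KMT2D-KO cells and glucose-fed cells were not analysed here, so no value below is a response to glucose or to KMT2D. The list came from 1 cell line with no replicate, and a list of positions cannot show whether the cells carry the markers of their label.

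The peaks were chosen by their chromosome alone. The chromosome was picked with its density, its strongest peaks and the stretch between 27 and 28.1 Mb already known, so these are descriptions and were not tested. Positions are GRCh37 and count from 1. No GRCh37 annotation or sequence was used here, so peaks are given by position, without gene, exon or intron and without their bases.

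KMT2D (MLL4) is an enzyme that works mainly at enhancers, the stretches of DNA from which genes are switched on at a distance. There it adds the single methyl mark on histone H3 (H3K4me1) and helps acetyltransferases to activate them. Enhancers that act on the same gene often lie close together, and the largest groups are known as super-enhancers. Chromosome 22 is a small acrocentric chromosome. Its short arm, made of satellite and ribosomal RNA repeats, is not assembled in GRCh37, so the peaks describe the long arm. Part of the long arm near the centromere consists of duplicated blocks, where few reads map uniquely. Only uniquely mapped reads were kept, so peaks in such blocks can be missed.

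KMT2D peaks lay close together on chromosome 22. Between the first peak at position 16205258 and the last at 51094987, a span of 34.9 Mb, density was 9.97 peaks per Mb (95% Poisson interval 8.95 to 11.1). The other 21 autosomes held 12641 peaks, or 4.62 per Mb, and chromosome 22 had 2.16 times their density (95% interval 1.94 to 2.403). It ranked 2 among the 22 autosomes. Chromosome 17 ranked 1 with 10.8 per Mb, and the ratio of chromosome 22 to it was 0.924 (0.813 to 1.05), so that the order of these 2 was within counting error. Density was 1.26 times that of chromosome 19 (1.10 to 1.45), which ranked 3, and 3.03 times that of chromosome 21 (2.46 to 3.74), the other small acrocentric chromosome. These intervals cover counting error only. Peaks were far from independent along the chromosome, since the variance of the count per 1 Mb bin was 9.71 times its mean, so the intervals are too narrow.

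Chromosome 22 is also rich in genes. RefSeq lists 451 protein-coding genes on it in its GRCh38 table, or 12.9 per Mb of the span, which ranked 3 among the autosomes. There were 77.2 peaks per 100 protein-coding genes, against 67.7 on the other autosomes together. By this measure chromosome 22 ranked 5. Chromosome 19 had more genes, 24.7 per Mb, but only 31.98 peaks per 100 genes. Across the 22 autosomes, peak density and gene density had a Spearman's rho of 0.88. This is a description over chromosomes of 1 library, with no test.

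The peaks filled the long arm unevenly. Of 36 bins of 1 Mb, 6 were empty (16.7%) and 11 held 1 to 4 peaks. Empty bins were nonetheless fewer than elsewhere. On the other autosomes 917 of 2750 bins (33.3%) were empty, and the share of chromosome 22 was the lowest of the 22 autosomes. Another 7 bins held at least 20 peaks, and these 7 together held 182 peaks (52.3%). On the other autosomes 115 of 2750 bins (4.18%) held at least 20 peaks, and they held 23.4% of the peaks. The median bin held 7.5 peaks on chromosome 22 and 2 elsewhere. Chromosome 17 was alike, with 16 of 82 bins at 20 peaks or more (19.5%, against 19.4% on chromosome 22) and a median bin of 9.

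**Figure D1:**
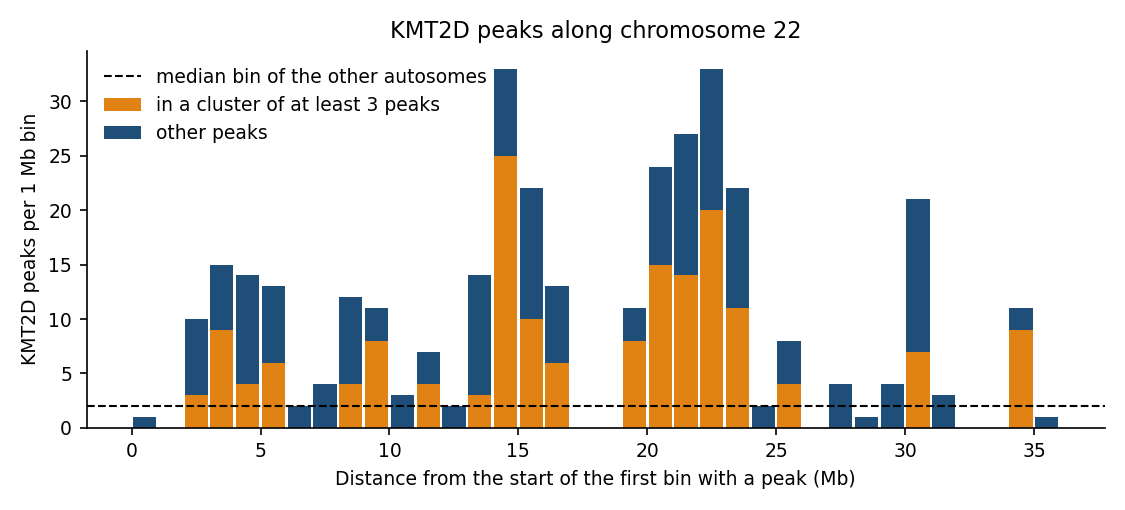
Number of KMT2D peaks in each 1 Mb bin of chromosome 22, against the distance from the start of the first bin that held a peak. Each bar is split into peaks in clusters of at least 3 and other peaks, and the dashed line marks the median bin of the other autosomes, 2 peaks. The highest bars, at 33 peaks, stand in 2 separate groups of bins.

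The bins from 30 to 31 Mb and from 38 to 39 Mb were the densest, with 33 peaks each. Only 16 of the 2750 bins of the other autosomes held as many. They were followed by 27 peaks at 37 to 38 Mb and 24 at 36 to 37 Mb, and the bins at 31 to 32 Mb and 39 to 40 Mb held 22 each. The 5 densest bins held 139 peaks (39.9%, 95% Wilson interval 34.9 to 45.2%). This share ranked 3 among the autosomes, after chromosomes 18 (61.1%) and 21 (60.8%), which have few peaks. Both densest bins held strong peaks, but not in like number. Fold enrichment, the ratio of scaled ChIP signal to local background at the summit, had a median of 4.76 at 30 to 31 Mb, where 6 peaks reached 10 or more. At 38 to 39 Mb the median was 3.50 and 3 peaks reached 10.

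Distances of more than 1 Mb between neighbouring peaks occurred 8 times and added up to 14.5 Mb, or 41.6% of the span. The longest, of 3.35 Mb, ran from position 32342203 to 35696610. Another, of 3.16 Mb, ran from 47170104 to 50329754, and 1.85 Mb separated the first peak from the second. Outside these 8 distances the density was 17.1 peaks per Mb, a value given for chromosome 22 alone. Distances over 1 Mb were 2.31% of all distances on chromosome 22, against 4.91% on the other autosomes together. An empty stretch says that no peak was called there, not that KMT2D was absent.

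The 8 distances divided the chromosome into 9 blocks, a division made after the positions were seen. The block from 35696611 to 39705175 held 117 peaks in 4.01 Mb, or 29.2 per Mb, and 58.1% of its peaks lay in clusters. The block from 26867532 to 32342202 held 94 peaks, or 17.2 per Mb, with 51.1% in clusters. It held 10 of the 21 peaks with a fold enrichment of at least 10, and the block of 117 peaks held 8. Nearer the centromere, 54 peaks lay between 18056475 and 22301983 and 27 between 23487642 and 25507053. Towards the end of the arm, 29 peaks lay between 44756710 and 47170103, of which 24.1% were in clusters. The last block, from 50329755 to 51094987, had 12 peaks, and 9 of them were in clusters. Median fold enrichment of the 5 blocks with more than 20 peaks lay between 3.84 and 4.11. The typical peak was thus alike in these blocks, while the highest value ran from 8.65 to 26.01.

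The median peak of chromosome 22 was similar in strength to that of the other autosomes, and which was higher depended on the q-value limit. Median fold enrichment was 3.93 (interquartile range 3.19 to 5.55), against 4.03 (3.20 to 5.56) on the other autosomes, and it ranked 17. The medians of the other 21 autosomes ran from 3.801 to 4.31. Among peaks with a q-value of at most 0.05 the order turned, with a median of 5.34 on chromosome 22, which then ranked 3, and 5.19 elsewhere. At 0.01 the medians were 5.93, rank 2, and 5.65. Median width was 365 bp, against 344 bp. The summit of the median peak was covered by 23.5 ChIP fragments (quartiles 17 and 35, lowest 11, highest 166), against 25 elsewhere. Fragment numbers were rebuilt from the deposited values of each peak. For comparison, the genome-wide background amounts to 2.88 fragments.

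Of the chromosome 22 peaks, 194 had a q-value of 0.05 or less (55.7%, 95% Wilson interval 50.5 to 60.9%). On chromosomes 1 to 22 together the share was 58.8%, inside that interval. The other 154 peaks rested on a median of 17 fragments, and the 194 on 32. For 49 peaks the q-value was 1.

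A fold enrichment of at least 10 was reached by 21 peaks (6.03%, 95% Wilson interval 3.98 to 9.05%), against 4.44% on chromosomes 1 to 22. Chromosome 22 ranked 2 by this share, but its interval contained the share of all autosomes, so no excess of strong peaks was shown. The weakest of the 21 had 10.1 and the strongest peak below the limit had 9.92. Of the 21 peaks, 16 lay in clusters, 3 in pairs and 2 alone, and 17 lay in bins of at least 20 peaks. Of all 348 chromosome 22 peaks, 48.9% lay in clusters and 52.3% in such bins. Their median width was 969 bp, against 347 bp for the other chromosome 22 peaks. The local background was raised to at least 2 times the genome-wide level at 1 of them.

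**Figure D2:**
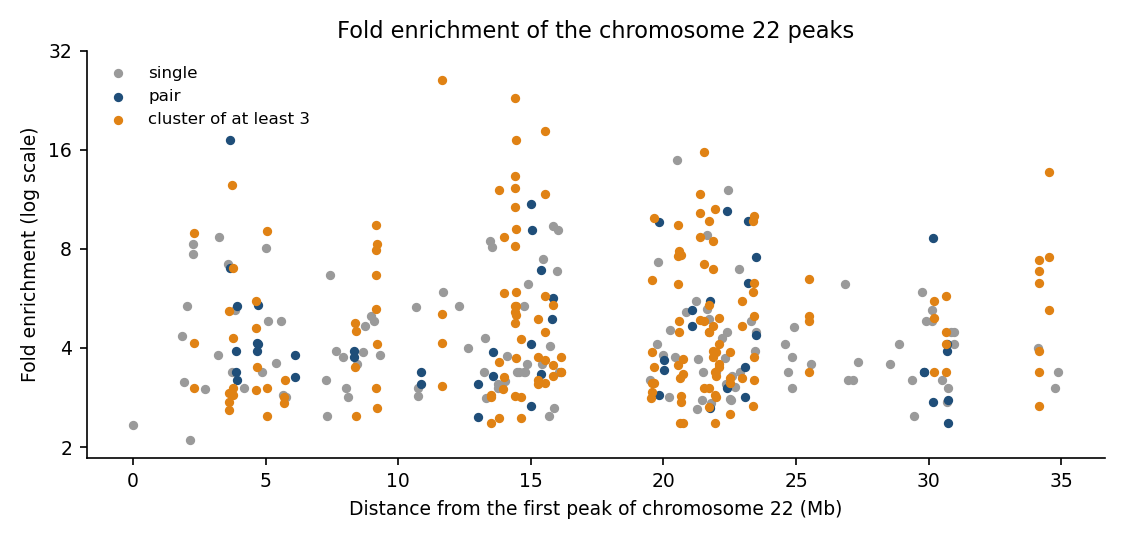
Fold enrichment of the 348 chromosome 22 peaks on a log scale, against the distance from the first peak in Mb. Colours mark peaks that were single, in pairs or in clusters of at least 3, and the highest point, at 26.01, stands in a bin of 7 peaks, close to the median of 7.5 for the chromosome.

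The strongest peak of the chromosome lay in the stretch between 27 and 28.1 Mb, which was picked as poor in genes. That description could not be checked without a GRCh37 annotation. The stretch held 7 peaks in 1.1 Mb, or 6.36 per Mb, and 4 of them had a q-value of at most 0.05. At 27068571 to 27069145 fold enrichment was 3.38 with 16 fragments, and at 27069478 to 27069660 it was 3.10 with 16. No peak followed for 783238 bp. A group of 4 peaks then began at 27852899 to 27853632, with a fold enrichment of 5.08 and 45 fragments. The next of them, at 27857429 to 27857761, had 4.15 with 41 fragments.

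The peak at 27869469 to 27873113 came next and exceeded all of these. It was 3645 bp wide, with 166 fragments over its summit at position 27871119 and a fold enrichment of 26.01 (95% Poisson interval of the ChIP fragments, 22.3 to 30.2). Its −log10 p of 79.1 was the highest of chromosome 22, and it ranked 2 by fold enrichment among the 12989 autosomal peaks. The local background at its summit was 1.34 times the genome-wide level. The peak at 27873324 to 27873517 began 210 bp further on with 3.07 and 18 fragments, and the last of the stretch, at 27908342 to 27908664, had 5.94 with 33. The strongest peak thus had 4.38 times the fold enrichment of the next in the stretch and made up 60.9% of the bases that the 7 peaks covered. After the last of them no peak was called for 603696 bp.

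A fold enrichment of at least 20 was reached by 14 autosomal peaks, and their 1 Mb bins held between 7 and 33 peaks. The bin of this chromosome 22 peak, with 7, held the fewest of the 14. It was not sparse in itself, since 17 of the 36 bins of chromosome 22 held fewer peaks and the median bin elsewhere held 2. A chromosome 9 peak at 137270542 to 137272479 had 9 peaks in its bin, and the others had at least 12. The median fold enrichment of the 7 peaks was 4.15, against 3.93 for the remaining chromosome 22 peaks, so that 1 peak and not the whole stretch stood out.

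**Figure D3:**
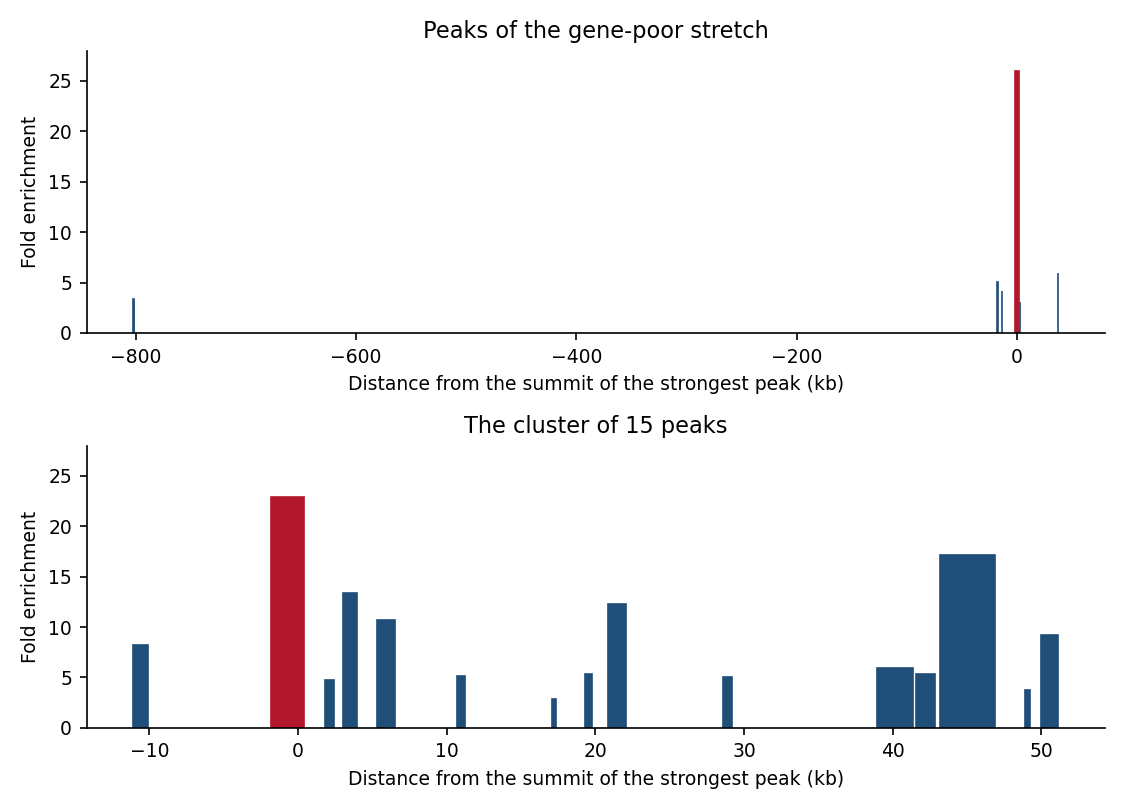
Fold enrichment of the peaks of the stretch from 27 to 28.1 Mb (upper panel) and of the cluster of 15 peaks (lower panel), against the distance in kb from the summit of the strongest peak of each, drawn in red. Bars span the peaks from start to end and are at least as wide as a line. The upper panel has 1 tall bar of 26.01 beside bars of at most 5.94, and the lower panel has 5 bars of at least 10.

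The next 3 peaks by fold enrichment lay between 30 and 32 Mb, in bins of at least 20 peaks. The peak at 30601261 to 30603456 had a fold enrichment of 22.9 (19.3 to 27.03) and 136 fragments, which ranked 5 among autosomal peaks. At 31739081 to 31740160 it was 18.3 (14.9 to 22.2) with 98 fragments. The peak at 30646251 to 30649941 was the widest of the chromosome, at 3691 bp, and had 17.2 (13.9 to 20.97) with 92 fragments. The first and last of these 3 belonged to the same cluster.

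Outside that region, the peak at 19868550 to 19869653 had 17.1 (14.3 to 20.4) with 125 fragments, and formed a pair with a neighbour. At 37723688 to 37724643 the value was 15.7 (12.7 to 19.4) with 85 fragments. The peak at 36724370 to 36727928 was 3559 bp wide, had 14.9 (12.4 to 17.8) with 115 fragments and stood alone, 33036 bp from the nearest peak. The last 3 of the 10 strongest were at 50720372 to 50721340 (13.7, 10.9 to 17.1), 30606108 to 30607067 (13.3, 10.7 to 16.5) and 19949995 to 19950927 (12.51, 10.2 to 15.2). Neighbouring ranks among the 10 overlapped in their intervals, so their order is not fixed by these counts. The interval of the strongest peak overlapped with that of the peak ranked 2 and lay above those of the other 8, the nearest of which ended at 22.2. Of the 100 autosomal peaks with the highest fold enrichment, 7 lay on chromosome 22, which held 2.68% of all autosomal peaks. This count takes part in how the chromosome was picked and was not tested.

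Width went with strength. More than 1000 bp were spanned by 29 chromosome 22 peaks (8.33%), whose medians were 8.96 for fold enrichment and 70 for fragments, and the narrower peaks had 3.75 and 22. On the other autosomes 5.59% of peaks were that wide, below the Wilson interval of 5.86 to 11.7% for chromosome 22, with a median fold enrichment of 7.56. Peaks were not independent, so this interval too is narrow. Chromosome 22 ranked 4 by this share, after chromosomes 19 (9.27%), 14 (8.88%) and 11 (8.78%), and chromosome 17 had 7.08%. Over the 348 peaks Spearman's rho between fold enrichment and width was 0.62, and it was 0.51 over the peaks of the other autosomes. Both measures come from the same pileup, so the relation is a description. Peaks covered 177.2 kb of chromosome 22, which was 5079 bp per Mb against 2060 bp per Mb on the other autosomes. This ranked 2, after chromosome 17 with 5111 bp per Mb.

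Peaks of chromosome 22 were clustered to a greater extent than on any other autosome under the definition used. A cluster was a run of at least 3 peaks with distances of up to 12500 bp, the distance that is in common use to stitch super-enhancers. There were 40 such clusters with 170 peaks, or 48.9% (95% Wilson interval 43.6 to 54.1%). Over chromosomes 1 to 22 the share was 33.7%. On the other 21 autosomes it ran from 22.4% on chromosome 15 to 40.1% on chromosome 19 (35.7 to 44.6%). Chromosome 17, of like density, had 37.7% (34.5 to 40.9%). With distances of up to 5000 bp the share was 23.9%, which ranked 2, below the 25.9% of chromosome 19. With at least 5 peaks per cluster it was 19.3%, which ranked 3, and chromosome 19 was highest at 21.3%. Members of a cluster are not independent, so these intervals too are narrow.

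**Figure D4:**
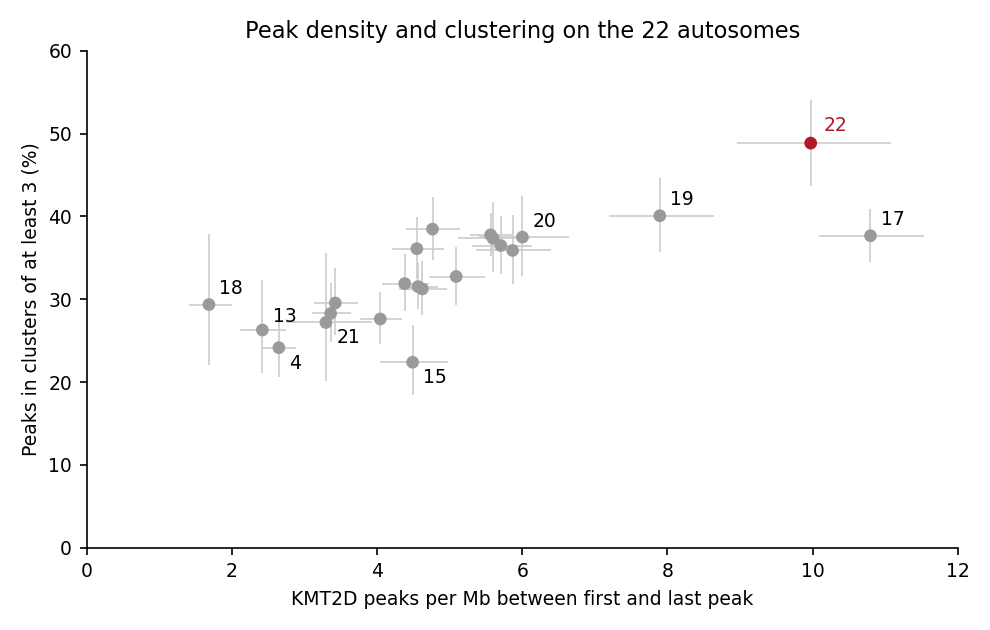
Percentage of peaks in clusters of at least 3 against peaks per Mb for the 22 autosomes, with 95% Wilson and Poisson intervals as bars. Chromosome 22 (red) stands highest at 48.9%, with a density of 9.97, and chromosome 17 stands at 37.7%, with a density of 10.8.

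Dense chromosomes had more of their peaks in clusters, with a Spearman's rho of 0.85 over the 22 autosomes. The rank of chromosome 22 therefore cannot be read without its density, and what the rank rests on was not tested. The distances between neighbours show where chromosome 22 differed from chromosome 17. Up to 5000 bp they were alike, with 29.1% of distances on either chromosome. Up to 12500 bp the share was 45.0% on chromosome 22 and 41.4% on chromosome 17. Over 1 Mb it was 2.31% and 1.14%, and 4.91% on the other autosomes together. The median distance was 18986 bp on chromosome 22, 20035 bp on chromosome 17 and 29764 bp on the other autosomes together.

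**Figure D5:**
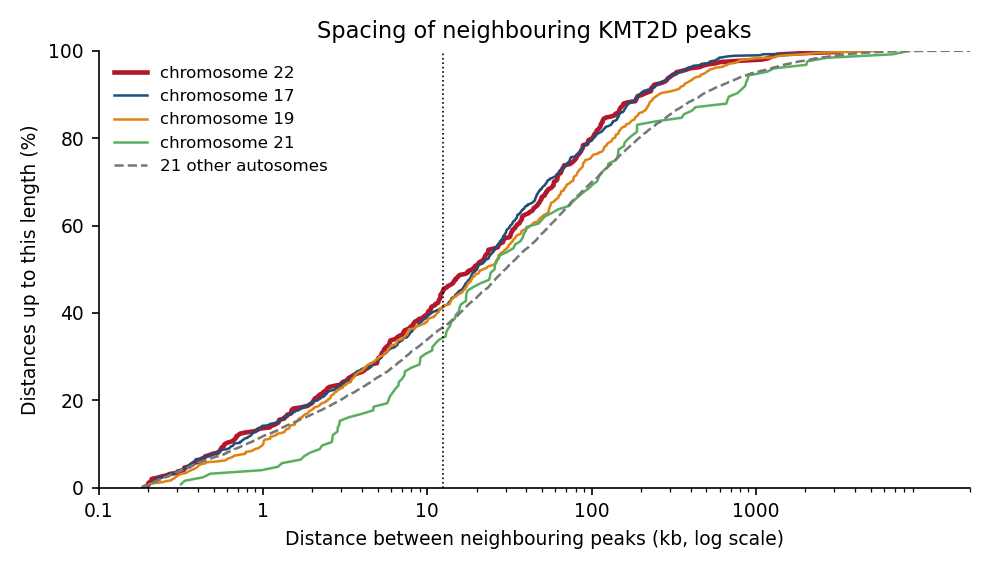
Cumulative percentage of distances between neighbouring peaks, against distance in kb on a log scale, for chromosomes 22, 17, 19 and 21 and for the 21 other autosomes together. The dotted line marks the stitching distance of 12500 bp, up to which 45.0% of the distances on chromosome 22 and 36.8% on the other autosomes fall.

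The clusters themselves were of usual size. They held a mean of 4.25 peaks, against 4.13 on the other autosomes, and 17 of the 40 had exactly 3. At least 5 peaks were found in 10 clusters (25%), the same share as in the 1020 clusters elsewhere. Chromosome 22 therefore had more clusters rather than larger ones, 1.15 per Mb, which ranked 1. Their spans ran from 2363 to 62255 bp, with a median of 13832 bp. Together the clusters took up 1.805% of the span of the chromosome and held 54.4% of the bases covered by its peaks.

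Of the 21 strong peaks, most lay in clusters. Over all 170 clustered peaks median fold enrichment was 4.21, against 3.92 in the 52 peaks in pairs and 3.75 in the 126 single peaks. A fold enrichment of at least 10 was reached by 16 of the 170 clustered peaks (9.41%) and by 2 of the 126 single ones (1.59%). Median width was 410.5 bp in clusters, 310.5 bp in pairs and 342.5 bp in single peaks. More than 1000 bp were spanned by 10% of peaks in clusters, 13.5% in pairs and 3.97% of single peaks. The other autosomes had the same order of strength, with a median fold enrichment of 4.29, 4.11 and 3.87 in clusters, pairs and single peaks. Among clustered peaks, 58.2% on chromosome 22 and 65.2% elsewhere had a q-value of 0.05 or less. In 3 of the 40 clusters no peak had one.

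The largest cluster held 15 peaks at 30591967 to 30654221. On the other autosomes 2 clusters had as many or more. Its peaks covered 18044 bp, or 29.0% of its span of 62255 bp, and 13 of them had a q-value of at most 0.05. Fold enrichment reached at least 10 at 5 peaks. In order along the chromosome, the cluster opened with a peak of 8.18, followed by 22.9, 4.76, 13.3, 10.7 and 5.15. The middle held peaks of 2.86, 5.38, 12.3 and 5.03. Then came 5.93, 5.37, 17.2, 3.72 and 9.17. The strongest peaks stood near both ends, with summits 43.8 kb apart and weaker peaks between them. Distances within the cluster ran from 208 to 9766 bp, and 10 of the 14 were at most 5000 bp. It held 4.31% of the chromosome 22 peaks and 10.2% of their covered bases. The local background was raised at 1 of its peaks, at 30620164 to 30620430, which had 3.65 times the genome-wide level and the lowest fold enrichment of the 15.

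The other large clusters had fewer strong peaks, although the medians of 2 of them were above the 5.93 of the largest. The cluster of 8 peaks at 25349345 to 25392835 had a highest value of 9.47 and a median of 5.95. Its longest inner distance was 12398 bp, just within the limit. Of the clusters with 6 peaks, the one at 36760965 to 36792239 had a median of 6.95, the highest of the 5 largest, and no peak of 10. The cluster at 37908444 to 37923360 had a median of 4.47 and a highest value of 9.72, over a span of 14917 bp. The cluster at 31724187 to 31744041 had a median of 5.10 and contained the peak of 18.3 given above as well as 1 of 11.7. The strongest peak of the chromosome belonged to a cluster of 4, from 27852899 to 27873517, which was stitched across a distance of 11707 bp and broke into 2 pairs at 5000 bp.

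The local background, known only at the summits of the peaks, was at least 2 times the genome-wide level at 39 peaks (11.2%, 95% Wilson interval 8.31 to 14.95%). Over chromosomes 1 to 22 the share was 15.2%. The highest value was 8.22 times, at a peak from 31573510 to 31573737 with 85 fragments and a fold enrichment of 3.33. Another 4 peaks lay at 4 times or more, at 18115980, 30816544, 38145977 and 38694390, with fold enrichments between 2.37 and 3.15. None of these 5 was among the 21 peaks with a fold enrichment of at least 10. A high local background lowers fold enrichment by its definition, so their absence says little about the 21. The share of peaks in clusters was 44.3% when the 39 were left out, against 48.9% with them.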

How the data were processed

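The analysed file holds the KMT2D peaks of 1 library, whose label gives antibody and genotype. Reads were aligned by the authors with Bowtie2 to hg19, which is GRCh37. They retained reads with a unique position, and MACS2 called peaks by p-value. No p-value in the list exceeded 0.00984. No pooling is stated, and the control is not named in the sources used here. The deposited fold enrichment is a ratio of scaled ChIP pileup to local background, with a pseudocount on both. The deposited −log10 p-value and −log10 q-value belong to the summit. The deposited score was the whole part of 10 times the −log10 p in 100% of lines.

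The number of fragments at a summit and its local background were solved from both deposited values, as a whole number of fragments. The scale was 0.381 and the genome-wide background 1.10 in scaled fragments. The largest gap in −log10 p was 0.00268 over all 13808 peaks. A second number lay within a tolerance of 0.02 for 35 chromosome 22 peaks, and the closest was taken. The rebuilding and the stitching were tested on simulated data.

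Intervals on densities were exact Poisson, on ratios exact conditional and on shares Wilson, all at 95%. Intervals on fold enrichment vary the ChIP fragments only. PCR reads without molecular identifiers are not independent, so all cover counting error only. With 1 library no test between groups was made. Named items were the 10 peaks of highest fold enrichment, the peaks of the stretch, the 5 largest clusters and densest bins, the widest peak, the peak of lowest p and the 3 longest distances. Other positions were chosen after their values were seen. The part and its lists were chosen with earlier results of these data known. The last peak ended at 51094987, beyond the last base annotated on chromosome 22 in GRCh38 (50801309), so GRCh38 was used only to count genes per chromosome. Scripts ran under Python 3.11.15 with pandas 2.3.3, numpy 2.4.6 and scipy 1.17.1, and figures were drawn with matplotlib 3.10.9.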

Additional observations from a re-analysis of the deposited data

Results flagged for a closer look

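Signal appeared in data that the comparisons between autosomes do not use. Outside chromosomes 1 to 22 there were 819 peaks, of which 147 lay on chromosome X, 1 on chromosome Y and 671 on other contigs. Median fold enrichment was 3.93 on chromosome X and 1.99 on the other contigs.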

How the results depend on the processing

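Under the alternatives 43 values were recomputed, of which 27 moved and 16 did not. Of them, 5 were chosen after seeing the data. They concern clusters without peaks of raised background, with peaks within 1000 bp merged, or without the largest cluster of each chromosome. Density was 5.93 and 4.77 per Mb at q-values of at most 0.05 and 0.01, 5.14 among the 6806 peaks above the median fold enrichment of the list, 8.63 after merging and 11.6 over occupied bins, and the rank was 2 in 4 of these 5 and 1 in the other. The ratio to the other autosomes fell to 1.68 over occupied bins and was otherwise between 2.12 and 2.17. The 5 densest bins held 46.8% at a q-value of at most 0.01. Median fold enrichment was 5.34 and 5.93 at the q-value limits, where its rank went from 17 to 3 and 2 and it passed from below to above the other autosomes (5.19 and 5.65). The cause of this turn was not tested. Clusters numbered 24 when stitched over 5000 bp, 10 when 5 peaks were required, 15 and 12 at the q-value limits, 13 in the upper part of the list and 24 after merging. The share of peaks in clusters was 23.9%, 19.3%, 33.5%, 34.0%, 33.9% and 33.2% in that order, and 60.1% with distances of up to 25000 bp. It was the highest of the autosomes in 7 of 9 alternatives, though by 33.5% against 32% and 33.2% against 31.5% in the closest. The share ranked 2 when stitched over 5000 bp and 3 when 5 peaks were required. The stretch held 4 peaks under either q-value limit and in the upper part of the list, and 11 with 0.5 Mb added at each side. Of the chromosome 22 peaks, 44.8% had a q-value of 0.01 or less. No paired analysis was possible because 1 sample was analysed. The median of 23.5 fragments over a summit limits the weaker peaks, and no replicate shows which are repeatable.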
